A study of Mus musculus with 3 samples.

Results

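Transcripts of 8 alpha and beta adrenergic receptor genes were counted in adipose stem and progenitor cells of mouse epididymal fat. The genes were taken by name from a table of 27179 genes and comprised the 3 alpha-1 genes (Adra1a, Adra1b and Adra1d), the 3 alpha-2 genes (Adra2a, Adra2b and Adra2c) and the beta genes Adrb1 and Adrb3. The cells came from untreated wild-type C57B6 males, 12 weeks old, as 1 group of 3 libraries with no second genotype, treatment or cell type. After collagenase digestion, live cells were sorted that lacked CD45, CD31 and Ter119 and carried CD140a, Sca1 and podoplanin. Fat from 3 mice was used, but the labels do not tie each library to 1 mouse, and p-values therefore measure only the spread between these samples, which may be technical.

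Adrenergic receptors are the G-protein-coupled receptors for noradrenaline, released in fat by sympathetic nerves, and for circulating adrenaline. Alpha-1 receptors couple mainly to Gq, which activates phospholipase C and releases calcium; alpha-2 receptors couple to Gi, which lowers cyclic AMP (cAMP); and beta receptors couple to Gs, which raises cAMP and activates protein kinase A. In mature fat cells beta receptors drive lipolysis and alpha-2 receptors restrain it, and Adrb3 is the beta receptor gene best known from rodent adipocytes.

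Of these 8 genes, Adra1b carried almost all of the reads. The libraries held 25060096 to 32813373 counts, and levels are given as CPM, which are counts scaled to a common library size. Adra1b (gene 11548, chromosome 11, 43774605 to 43901250, minus strand, GRCm38), which encodes the alpha-1B receptor, had 361, 783 and 581 counts in libraries 1, 2 and 3, or 11.4, 31.03 and 20.8 CPM. Its mean was 21.1 ± 9.83 CPM (SD, n = 3), highest in library 2 and lowest in library 1. It ranked 5788 of 20983 protein-coding genes by mean CPM, at percentile 72.4, and at percentile 77.2 of the 20880 with a known length by CPM per kilobase of exon. Among the 9161 protein-coding genes at 1 CPM or more in every library, called detected here, it stood at percentile 37.0, below the middle of the expressed genes.

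Adra1b overlaps no other annotated gene and has 2 starts in the RefSeq promoter table. No transcript of another gene in GENCODE M21 matched its longest transcript at 90% identity over 100 bases. The window of the upstream start reaches the outer end of the annotated gene, at 43901250, while that of the inner start lies within the gene. A gene count cannot tell which of the starts was used. The 250 bases before each RefSeq start (GRCm38.p6) are shown because they flank the starts of the gene detected among the 8, with that of Adrb1, a receptor gene with almost no reads, beside them. Capitals mark matches to the motifs searched on both strands, which were the GC box GGGCGG, the CCAAT box CCAAT, the AP-1 site TGACTCA, the TATA box TATAAA, the cAMP response element TGACGTCA and an EBF motif CCCNNGGGA. No marked matches overlapped. The windows are chr11:43901238-43901487 (minus strand), chr11:43836490-43836739 (minus strand) and chr19:56721867-56722116 (plus strand).
Adra1b upstream start: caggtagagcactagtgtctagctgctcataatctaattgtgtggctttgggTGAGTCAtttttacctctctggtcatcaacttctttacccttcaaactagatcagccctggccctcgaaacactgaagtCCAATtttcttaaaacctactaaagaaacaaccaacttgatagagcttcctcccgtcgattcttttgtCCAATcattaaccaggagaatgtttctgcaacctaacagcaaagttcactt
Adra1b inner start: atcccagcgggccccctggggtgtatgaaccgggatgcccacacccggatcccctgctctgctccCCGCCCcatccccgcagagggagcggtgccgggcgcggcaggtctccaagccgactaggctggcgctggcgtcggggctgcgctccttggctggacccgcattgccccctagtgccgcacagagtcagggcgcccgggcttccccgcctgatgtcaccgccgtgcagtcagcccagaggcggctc
Adrb1 start: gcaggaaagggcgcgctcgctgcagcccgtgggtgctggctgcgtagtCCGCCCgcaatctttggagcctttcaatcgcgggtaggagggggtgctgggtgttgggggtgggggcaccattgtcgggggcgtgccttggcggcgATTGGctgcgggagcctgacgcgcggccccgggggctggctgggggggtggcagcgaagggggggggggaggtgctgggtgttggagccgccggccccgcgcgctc

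The 2 Adra1b windows differed in composition. The upstream window was 41.6% G + C with 3 CpG pairs and held 1 AP-1 and 2 CCAAT matches. The inner window was 72.8% G + C with 22 CpG pairs and held 1 GC box. The Adrb1 window, at 74.0% with 24 CpG pairs, held 1 GC box and 1 CCAAT box, so a window rich in CpG pairs was found before a gene with reads and before one with almost none. Over all 32851 windows of this length the median was 52.4% G + C with 6 CpG pairs. Of them 32.7% held a GC box, 33.8% a CCAAT box, 4.46% an AP-1 site, 12.4% a TATA box, 1.55% the cAMP response element and 5.60% the EBF motif. Neither of the last 2 was found in the 6 windows of the 5 receptor genes in the RefSeq table. The table gave no window for Adra1a, Adra1d and Adrb3.

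The other 7 receptor genes had 13 counts together. Adra1a (gene 11549, chromosome 14), the alpha-1A receptor of smooth muscle and heart, had 0 counts in every library. Adra1d (gene 11550, chromosome 2), the alpha-1D receptor of arteries, had 0, 0 and 2 counts. Neither alpha-1 relative of Adra1b thus exceeded a count of 3 in a library, the floor set here. That floor equals 0.0945, 0.119 and 0.107 CPM in libraries 1, 2 and 3.

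The alpha-2 genes, whose products act through Gi and in fat cells oppose lipolysis, were as low. Adra2a (gene 11551, chromosome 19) had 0, 1 and 0 counts. Adra2b (gene 11552, chromosome 2) had 2, 0 and 1 counts. Adra2c (gene 11553, chromosome 5) had 2, 0 and 0 counts. All 3 stayed at or below that floor in every library.

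The beta genes reported here, Adrb1 and Adrb3, were near 0 as well. Adrb1 (gene 11554, chromosome 19), the cardiac beta receptor that fat cells also carry, had 1, 0 and 1 counts. Adrb3 (gene 11556, chromosome 8), the receptor of rodent fat cells, had 0, 3 and 0 counts. Its 3 reads came from library 2 alone, and 47 other protein-coding genes had exactly these counts, among them Il1b, Il2rb and Ly6f, so a likeness to other genes cannot be read at this depth.

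**Figure D1:**
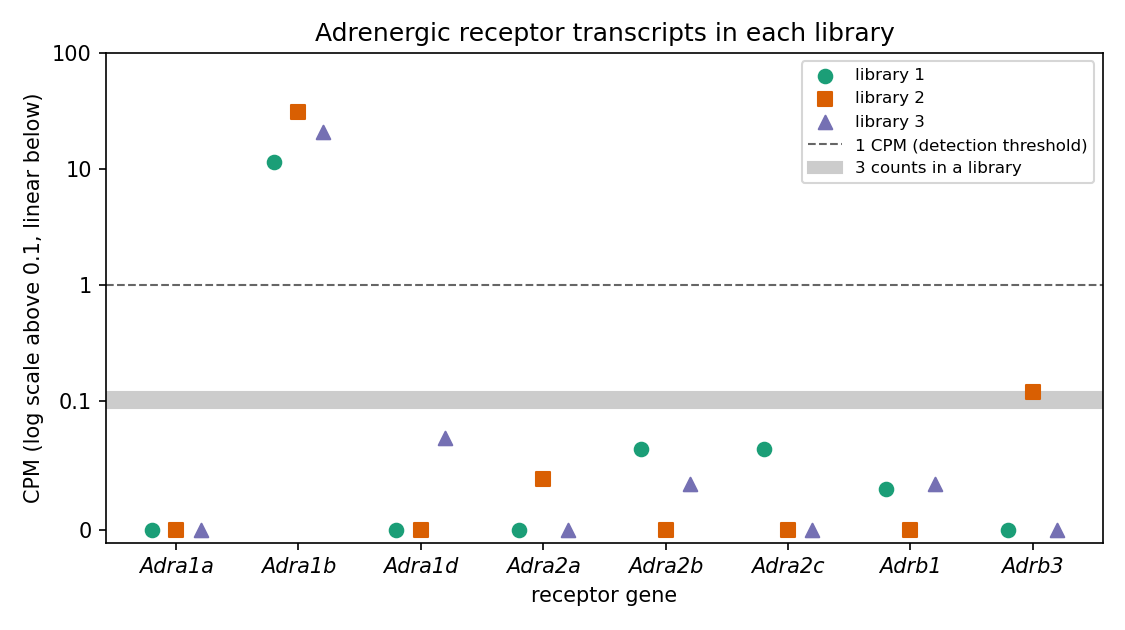
Levels of the 8 adrenergic receptor genes (x axis) in CPM (y axis, log scale above 0.1 and linear below), 1 point per library, with the detection threshold of 1 CPM dashed and the range of 3 counts per library shaded. Adra1b lies between 11.4 and 31.03 CPM in the 3 libraries, and each of the other 7 genes lies at or below 3 counts in each library.

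Adra1b thus held 98.6% of the reads of these 8 genes in library 1 (361 of 366, exact 95% binomial interval 96.8% to 99.6%), 99.5% in library 2 (783 of 787, 98.7% to 99.9%) and 99.3% in library 3 (581 of 585, 98.3% to 99.8%). The intervals cover counting error only, because amplified reads are not independent molecules. Against Adrb3, Adra1b had 574 times the reads per kilobase of exon over the 3 libraries (exact 95% counting interval 196 to 2786). Against Adra2b the ratio was 682 (233 to 3313), and against Adra1d it was 484 (134 to 4002). Against Adra1a, which had no reads and was set at a floor of 3 counts over the group, the ratio per kilobase came to 1484. This value depends on the floor, and the exact 95% counting interval for 0 counts reaches 3.69. It also depends on length, as 8728 bases of exon were used for Adra1a, whose longest transcript has 4282. It is therefore no lower limit and is not the exact interval given for the other ratios. In the order of mean level per kilobase Adra1b was followed by Adra1d, and the difference in log2(CPM per kilobase + 0.5) was 3.62 ± 0.66, higher in each of 3 libraries. The two-sided exact permutation test by sign flips gave p = 0.25, the smallest that 3 libraries allow, and 1.0 after Benjamini-Hochberg adjustment over the 7 neighbouring pairs. The difference was 5.72 with a pseudocount of 0.1. The pairs were formed by ordering the genes on these same levels, so the direction of a difference follows from the ordering. The place of Adra1d next to Adra1b rests on 2 counts. The order within the remaining 6 pairs rests on 3 counts or fewer a gene and cannot be read.

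The alpha-1 genes together exceeded the alpha-2 genes in each library, through Adra1b. Adra1b held 1725 of the 1727 alpha-1 counts, so this comparison restates its level and is no separate result on the classes. The summed alpha-1 levels were 3.36, 9.17 and 6.17 CPM per kilobase in libraries 1, 2 and 3. Those of the alpha-2 genes were 0.0340, 0.00820 and 0.00890, with no overlap. The log2 difference, with 0.5 added to each sum, was 3.61 ± 0.70 (two-sided exact permutation by sign flips, p = 0.25, again the smallest possible). With a pseudocount of 0.1 it was 5.65.

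One of the 8 receptor genes was detected (12.5%), against 35.0% of all genes and 43.7% of protein-coding genes. The median of the 8 was 0.0231 CPM, against 0.108 over all genes and 1.90 over protein-coding genes. In 14 other aminergic receptor genes, those for dopamine, histamine and acetylcholine, 1 was detected, the muscarinic receptor gene Chrm3 at 4.47, 5.03 and 4.04 CPM. The dopamine receptor gene Drd5 followed at 0.756, 1.19 and 0.857 CPM, and 5 of the 14 had 0 counts in every library. The count was 2 at 0.5 CPM and 0 at 5 CPM.

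Base composition and shared sequence were set beside the low counts. The longest transcripts of Adra1d and Adra2c were 65.4% and 65.5% G + C. Of the 89 protein-coding genes between 65% and 70% G + C, 20.2% were detected. The transcripts of Adra1b, Adra1a and Adra2b fell between 50% and 55%, where 46.6% of 4937 genes were detected, and those of Adra2a, Adrb1 and Adrb3 between 55% and 60%, where 45.0% of 3400 were. Transcripts of similar composition to the 6 receptor genes below 60% were therefore detected about as often as protein-coding genes as a whole. Some widely used genes, chosen after their values were seen, were also low. Gapdh had 62, 79 and 63 counts and its transcript matched 182 other genes at 90% identity over 100 bases; Actg1 had 62, 76 and 35 and matched 13. Prkaca, the main catalytic subunit of protein kinase A, had 1, 0 and 3 counts and matched 1. By the same measure the transcripts of Adra1a, Adra2a, Adra2b, Adra2c and Adrb1 matched no other gene, and those of Adra1d and Adrb3 matched 1 each, a gene whose exons overlap theirs. Among the receptor genes, the coding sequences of Adra2a and Adra2c were the most alike at 74.8% identity, and Adra1b shared 68.4% with Adra1a and 69.0% with Adra1d. A count of 0 in a single library was rare among abundant genes. Of genes with 100 counts or more in both other libraries, 0.210%, 0.579% and 0.621% had 0 counts in libraries 1, 2 and 3. The part of these features in the low receptor counts was not tested.

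**Figure D2:**
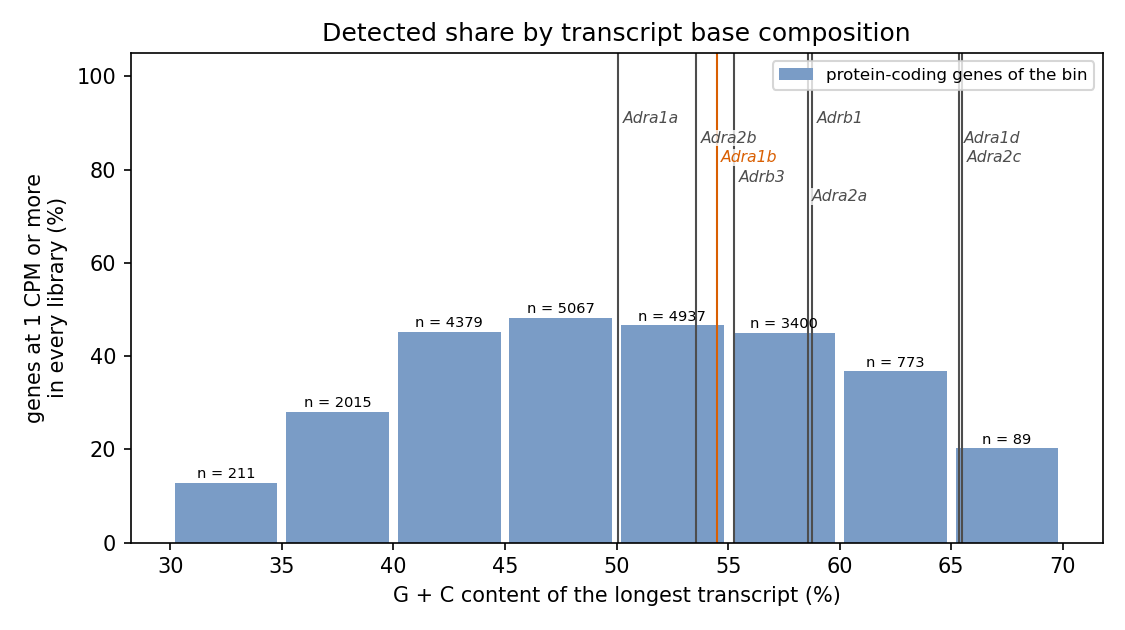
Share of protein-coding genes at 1 CPM or more in every library (y axis, %) in bins of the G + C content of the longest transcript (x axis, %), with the number of genes above each bar and vertical lines at the 8 receptor genes. The share is 46.6% in the bin of Adra1b and 20.2% in that of Adra1d and Adra2c.

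Adra1b varied 2.73-fold between its lowest and highest library, and it passed the threshold in none of the 3 tests of a library against the others. Library 1 was lower than the other 2 by a log2 difference of -1.19, library 2 differed by 0.95 and library 3 by -0.03, with adjusted p = 0.99, 0.98 and 1.0 (edgeR quasi-likelihood test of each library against the other 2, Benjamini-Hochberg over 13289 genes). DESeq2 gave adjusted p = 0.97, 0.95 and 1.0. With edgeR 0 genes (0%) passed in any of the 3 comparisons, with 511, 659 and 674 at an unadjusted p under 0.05, while DESeq2 called 126, 199 and 197 genes (1.12%, 1.66% and 1.61% of those it tested). The lone library is assumed to vary as the others do, and a p that misses the threshold does not show that the libraries were alike. The protein-coding genes nearest to Adra1b over the 3 libraries were Brpf3, Kiz and Stk38l, whose log2(CPM + 0.5) differed from it by at most 0.15 in any library. Brpf3 stood at 12.6, 33.3 and 21.2 CPM, Kiz at 12.7, 30.95 and 19.6 and Stk38l at 12.7, 30.4 and 19.9.

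Markers of smooth muscle and pericytes were detected in part, and no marker of the macrophage and endothelial lists was detected. The summed smooth muscle and pericyte level followed the library order of Adra1b, but of its detected markers only Abcc9 did. Few orders are possible with 3 libraries, and this order was not particular to these markers. It also held for the summed Gq-class genes, at 155, 194 and 165 CPM, and the thermogenic genes, at 8.69, 14.6 and 11.3. The receptor kinase and arrestin list and the RGS list had other orders. The sort genes were abundant, with Pdgfra, Ly6a and Pdpn at 1484 ± 14.5, 3254 ± 441 and 119 ± 31.9 CPM, and of the excluded genes Pecam1, which encodes CD31, had 4 counts in all. Ptprc, which encodes CD45, stood at 5.42, 15.8 and 7.68 CPM, in the same order of libraries as Adra1b. Of 12 smooth muscle and pericyte markers, cells in which Adra1b is also known, 4 were detected (33.3%), namely Abcc9, Myl9, Des and Tagln. This share was near the 35.0% of all genes and below the 43.7% of protein-coding genes. The 12 markers had summed levels of 55.5, 138 and 65.4 CPM in libraries 1, 2 and 3. Library 2 was highest, 3 next and 1 lowest, as for Adra1b, and the gap of library 2 lay mainly in Abcc9, a potassium channel subunit gene, at 12.9, 85.4 and 16.6 CPM. Myl9, a myosin light chain gene, stood at 27.1 ± 5.64 CPM, above the mean of Adra1b. Across libraries 1, 2 and 3 it had 25.5, 33.4 and 22.4 CPM, Des 5.13, 7.89 and 15.1 and Tagln 5.99, 4.16 and 2.00. These were not in the library order of Adra1b. Acta2, smooth muscle actin, had 18, 60 and 32 counts, in the library order of Adra1b. Cspg4 had 54, 1 and 145 counts, Notch3 46, 10 and 71 and Kcnj8 69, 111 and 0, in other orders. Rgs5 and Higd1b had 0 counts, Myh11 had 0, 2 and 7 and Cnn1 had 2, 0 and 4. The mature adipocyte list had 1 of 10 members detected, Acaca at 15.0, 12.9 and 4.14 CPM, with summed levels from 6.25 to 26.1 CPM. Adipoq and Cidec had 0 counts. Others of this list were uneven, with Cfd at 215, 0 and 0 counts, Retn at 2, 164 and 0, Lipe at 93, 24 and 0 and Lep at 5, 3 and 58. The macrophage list had 0 of 10 (0.750 to 4.52 CPM, C1qb at 0), with Csf1r at 2, 55 and 4 counts. The endothelial list had 0 of 10 (0.284 to 0.429, Esam at 0) and the mesothelial list 1 of 8, Nkain4 (10.1 to 21.4, none at 0 throughout, Msln and Upk3b at 4 and 2 counts). Without library 1 Krt18 was also detected. The sympathetic neuron and Schwann cell list had 2 of 10, Slc6a2 and S100b (15.1 to 37.6), with Th and Sox10 at 0. Their part in the level of Adra1b was not tested, and in pooled cells a smaller share of cells with the transcript cannot be told apart from less transcript per cell.

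Of 10 genes that take up and break down noradrenaline, 4 were detected, a share near that of all genes (35.0%) and of protein-coding genes (43.7%). Slc6a2, the noradrenaline transporter that clears it from the extracellular space, stood at 28.6, 9.75 and 20.1 CPM, lowest in library 2, where Adra1b was highest. Maob and Maoa, the monoamine oxidases, had 85.7 ± 15.5 and 26.3 ± 7.80 CPM (SD, n = 3). The vesicle transporter gene Slc18a2 was uneven at 12.1, 0.317 and 6.61 CPM, and Slc22a2, Slc22a3 and Slc29a4, low-affinity transporters, had 2 counts or fewer each. The synthesis list had 0 of 5 members detected. Th, the rate-limiting enzyme, and Pnmt, which makes adrenaline, had 0 counts in every library, and Dbh had 4, 1 and 0. Ddc, an enzyme shared with serotonin synthesis, stood at 0.252, 7.37 and 4.43 CPM and counted as detected without library 1. Gch1, which encodes an enzyme for the cofactor of Th, stood at 3.31 CPM in library 1 and 0 in the others, and Slc18a1, another vesicle transporter gene, at 3.87 CPM in library 1 and 0 in the others.

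**Figure D3:**
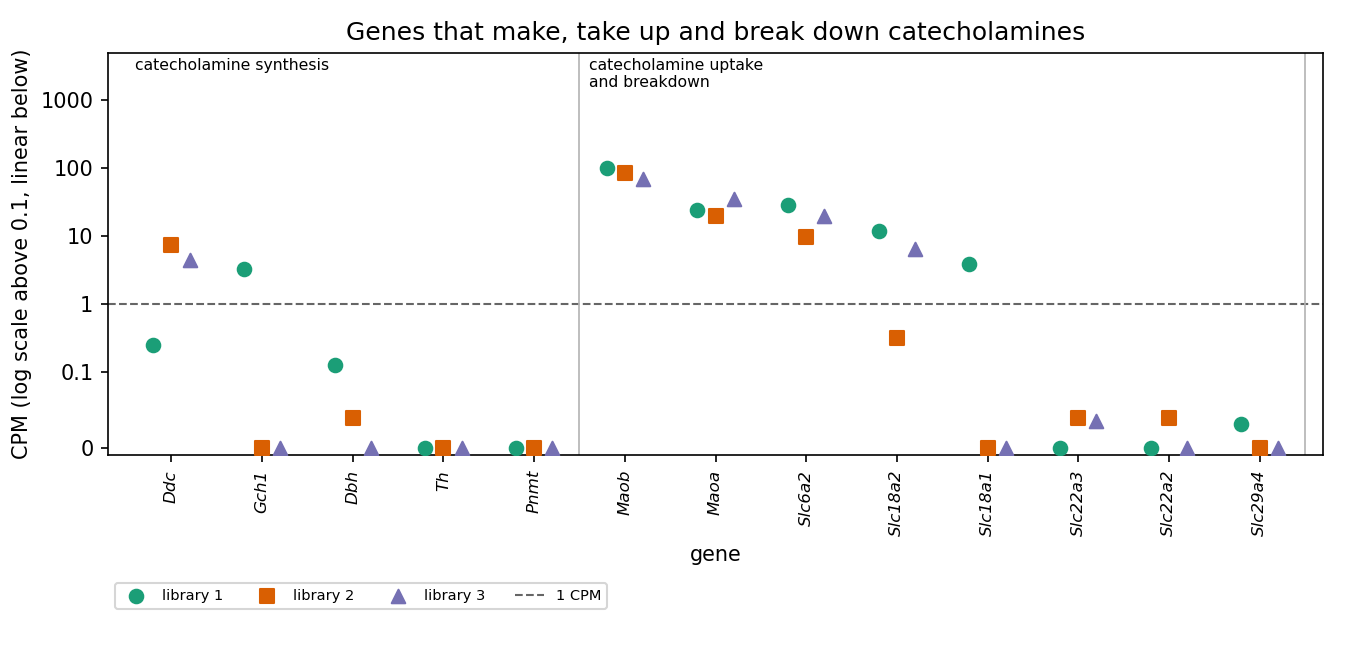
Levels in CPM (y axis, log scale above 0.1 and linear below) of the genes reported here for catecholamine synthesis and for uptake and breakdown (x axis), 1 point per library, with 1 CPM dashed. Maob, Maoa and Slc6a2 are above 1 CPM in the 3 libraries, and Th and Pnmt are at 0.

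Genes of the Gq route, on which the alpha-1B receptor acts, were detected at each step. Over the whole data 35.0% of all genes and 43.7% of protein-coding genes were detected. Of 4 Gq-class genes 2 were detected (50%), a share near that of protein-coding genes. Gnaq and Gna11, the widely expressed Gq-class subunits, stood at 137 ± 29.0 and 34.7 ± 14.8 CPM, while Gna14 and Gna15 had 3 and 2 counts in all. Of 7 phospholipase C-beta and calcium release genes, 6 were detected (85.7%), and 4 at a threshold of 5 CPM. The list was led by the inositol trisphosphate receptor gene Itpr1 at 61.1 ± 26.3 CPM and by Plcb3 at 25.9 ± 6.75. Itpr2 was nearly even at 19.0, 18.7 and 18.9 CPM, and Plcb2, a blood cell isoform, had 3, 0 and 2 counts.

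Receptor kinase and arrestin genes, which switch receptors off, were detected in 6 of 7 cases and RGS genes in 2 of 10, against 35.0% of all genes. At a threshold of 5 CPM the first count was 3. Arrb1, an arrestin, stood at 33.1, 13.3 and 20.9 CPM, and the receptor kinase genes Grk5 and Grk2 at 20.4 ± 12.6 and 14.1 ± 4.93. Of the RGS genes, which speed the return of G proteins to rest, Rgs10 and Rgs19 were detected at 73.6 ± 37.2 and 17.6 ± 5.67 CPM. Rgs2, a Gq-directed regulator, was uneven at 10.9, 29.4 and 0.393 CPM, and library 3 differed from the others by -5.66 on the log2 scale (edgeR quasi-likelihood test, adjusted p = 0.89; DESeq2, adjusted p = 0.0017). With 1 library against 2, this describes library 3 and no condition. Rgs4 had the same order at 4.28, 11.1 and 0.143 CPM, and without library 3 the list had 4 detected members.

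**Figure D4:**
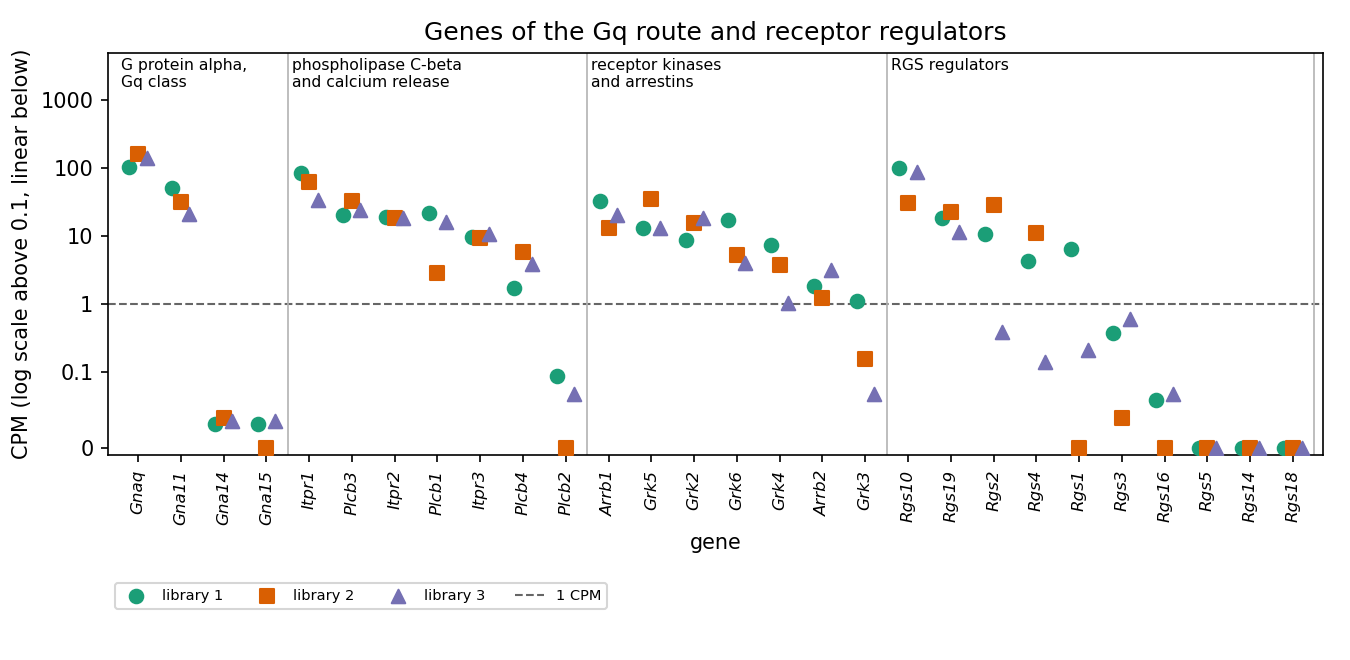
Levels in CPM (y axis, log scale above 0.1 and linear below) of Gq-class subunits, phospholipase C-beta and calcium release genes, receptor kinases and arrestins, and RGS genes (x axis), 1 point per library, with 1 CPM dashed. Rgs2 and Rgs4 fall below 1 CPM in library 3 alone.

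Genes of the cAMP route, on which alpha-2 and beta receptors act, were detected at shares that for cyclases, phosphodiesterases and protein kinase A lay near those of all genes (35.0%) and protein-coding genes (43.7%). Both Gs-class genes were detected, Gnas at 902 ± 125 CPM, and 4 of 5 Gi-class genes, led by Gnai3 at 303 ± 32.6. Of 9 adenylyl cyclase genes 5 were detected, led by Adcy7 at 73.1, 59.8 and 151 CPM and Adcy6 at 24.6 ± 4.12. Of 10 phosphodiesterase genes 4 were detected, Pde4b highest at 58.6 ± 29.3 CPM. At 5 CPM these counts were 3 cyclases and 2 phosphodiesterases. Of 8 protein kinase A and Epac genes 4 were detected, with the regulatory subunit gene Prkar1a at 311 ± 10.9 CPM and the catalytic subunit gene Prkacb at 109 ± 15.9. Prkar2b, another regulatory subunit gene, had 638, 684 and 0 counts. The comparison of library 3 alone with the others gave an adjusted p of 0.59 with edgeR's quasi-likelihood test and 0.00011 with DESeq2, which concerns that library only. CREB factors and coactivators were detected in 7 of 7 cases, led by Creb1 at 100.2 ± 24.5 CPM.

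Levels of targets of adrenergic signalling were mixed. The detected shares were 50% for cAMP-induced, 37.5% for lipolysis and 25% for thermogenic genes. Those of all genes and of protein-coding genes were 35.0% and 43.7%, so the lipolysis share was near them. Of 10 genes that cAMP is known to induce, 5 were detected, led by Fos at 6574 ± 557 CPM and Nr4a1 at 96.7 ± 12.6, both known to be induced by tissue dissociation as well. Nr4a3 had 0 counts, and Ppargc1a and Areg had 4 and 1 in all. Of 8 lipolysis genes 3 were detected, namely the ATGL co-activator gene Abhd5 at 35.6, 80.3 and 76.9 CPM, the fatty acid carrier gene Fabp4 at 18.9, 98.6 and 72.9 and Mgll at 14.5, 26.0 and 77.9. Pnpla2, which encodes the lipase ATGL, stood at 0.599, 4.44 and 5.36 CPM, and Lipe, hormone-sensitive lipase, at 2.93, 0.951 and 0. Thermogenic genes were detected in 2 of 8 cases, Cox7a1 at 6.05 ± 3.48 CPM and Prdm16 at 4.39 ± 3.63, with Ucp1 at 2 counts in all and Dio2 at 0. None of the 8 reached 5 CPM in every library.

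**Figure D5:**
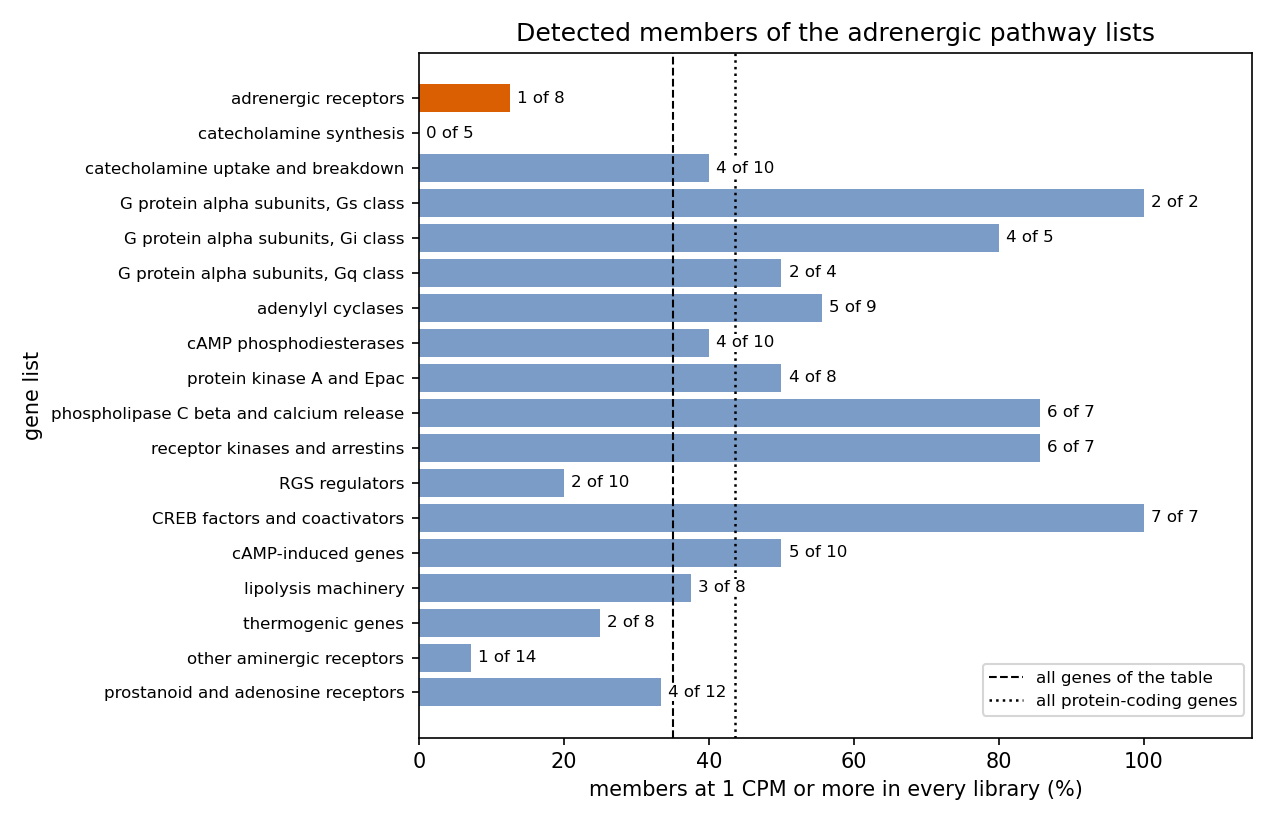
Share of each gene list at 1 CPM or more in every library (x axis, %), with the number of detected and measured genes beside each bar and the shares of all genes and of protein-coding genes as lines. The adrenergic receptor list stands at 1 of 8, and the CREB list at 7 of 7.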

How the data were processed

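RNA was measured in 3 libraries of 1 group of sorted progenitor cells from epididymal fat, amplified as full-length cDNA with a SMARTer kit, per the labels' protocols. The tools in the submitters' processing notes are STAR 2.3.0 and CASAVA 1.8.2, and the build is mm10. How reads were counted, with which annotation and whether by strand, is not given in the sources used here. Raw read counts per NCBI gene ID make up the deposited table, which has no unassigned row. Symbols came from RefSeq (GRCm38.p6; 25275 of 27179 IDs matched) and lengths and transcripts from GENCODE M21 (24847 genes). CPM used TMM library sizes (edgeR 4.0.16, R 4.3.3). Detected means at least 1 CPM in all 3 libraries, and log2 values used a pseudocount of 0.5.

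Libraries were compared, 1 against the remaining 2, by the edgeR quasi-likelihood test (genes with 10 counts or more in a library; adjusted p threshold 0.05), checked on simulated data, with DESeq2 1.42.0 as an alternative. Coding sequences were aligned globally, and transcripts were matched with BLAST. The other alternatives were detection thresholds, size factors, pseudocounts, lengths, filters and leaving out a library. Members and lists were chosen with earlier results of these data known. All 8 members are named, and up to 4 genes with the highest mean CPM of each list, others where a count needs them, and the 3 protein-coding genes nearest in level to the top 2 members. Some genes of the lists, and some adrenergic receptor genes, are not reported here.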

Additional observations from a re-analysis of the deposited data

How the results depend on the processing

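The count of detected receptor genes was 1 at 0.5 and 5 CPM, with DESeq2 size factors, with plain library totals and without any 1 library. Mean Adra1b was 21.01 CPM with DESeq2 size factors and 21.2 with plain totals, and 16.1 to 25.9 CPM with a library left out. The difference from Adra1d ranged from 2.75 (pseudocount 1) to 5.72 (pseudocount 0.1), and from 3.29 to 3.95 with a library left out. The alpha-1 minus alpha-2 difference ranged from 2.75 to 5.65, and from 3.28 to 3.98. Genes called between libraries numbered 0 in each comparison with edgeR, and still 0 with DESeq2 size factors in it. Without a filter on low counts they numbered 16, 16 and 36, and with DESeq2's Wald test 126, 199 and 197. The cause was not tested. With 1 library against 1 no test is possible, and the Adra1b difference of library 3 then turned from -0.03 to 0.87 without library 2. Besides that value, 13 list counts moved by over 1.5 times or between 0 and 1. Beside those given with their lists, the adipocyte and mesothelial counts fell from 1 to 0 and the neuron and Schwann count from 2 to 1 at 5 CPM, and the macrophage count rose from 0 to 1 at 0.5 CPM. Another 211 values counted as unmoved, a rule that allowed up to 1.5 times in a count or 1 SD in a mean level. Among them the phosphodiesterase count went from 4 to 6 without library 3. List counts under these alternatives were added after the data were seen. No paired analysis was possible because the labels give 1 group. At these depths a receptor gene below about 0.1 CPM cannot be told from 0.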

Other observations

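Of the prostanoid and adenosine receptor genes, whose products also act through cAMP or calcium, Ptger4 and Ptgir stood above Adra1b. Of 12 prostanoid and adenosine receptor genes 4 were detected (33.3%), a share near the 35.0% of all genes and below the 43.7% of protein-coding genes. Ptger4, the prostaglandin E2 receptor EP4, stood at 56.8, 65.2 and 43.2 CPM, and Ptgir, the prostacyclin receptor, at 38.6, 46.4 and 62.3. Per kilobase of exon, Ptgir stood at 14.7 ± 3.62 CPM and Ptger4 at 8.28 ± 1.67, against 6.22 ± 2.91 for Adra1b (SD, n = 3). Ptgfr stood at 12.3 ± 2.26 CPM and Adora2b at 8.38 ± 2.97. Per kilobase their means were 1.81 and 4.54 CPM, below that of Adra1b. Tbxa2r, the thromboxane receptor gene, was uneven at 4.91, 0.674 and 12.5 CPM, and Ptger3, which lowers cAMP, stood at 5.17, 0.832 and 0. Adora1, Adora2a and Ptgdr had 4 counts or fewer each over the 3 libraries. These levels were not tested against those of the adrenergic receptors.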
